A study of Mus musculus with 12 samples.

Results

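The genes described here are 10 components of the switch that takes a cell into mitosis, followed in mouse oligodendrocyte progenitor cells (OPCs) that received a miR-27a mimic or a control mimic. They are the mitotic cyclins Ccnb1, Ccnb2 and Ccna2, their kinase Cdk1, the activating phosphatases Cdc25b and Cdc25c, the inhibitory kinase Wee1, the kinase Plk1, the transcription factor Foxm1 and Cdc20, which starts the destruction of the cyclins. They were taken by symbol from the 20540 genes of the deposited table, and all 10 had a row. The set was chosen by function with the log2 CPM differences between the mimics, in whole-cell and pulldown RNA, already known, so the comparisons between mimics are given as a description, with no p-value for any of the 10 genes.

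Cdk1 is inactive until it binds a cyclin, and the complex is then held back by phosphates that Wee1 places on the kinase and that Cdc25 phosphatases remove. Once active, Cdk1 activates Cdc25 and, with Plk1, promotes the loss of Wee1, so the change of state is abrupt. Foxm1 drives transcription of the B cyclins, Plk1, Cdc25b and other genes late in the cycle, and Cdc20 brings the anaphase-promoting complex to cyclin B1 so that mitosis can end. OPCs divide in response to platelet-derived growth factor, and they leave the cycle when they become myelinating oligodendrocytes.

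The OPCs came from brain, from C57BL/6 mice aged postnatal day 6 to 7. Every group was grown in proliferation medium named SATO+PDGFRA and transfected with a mimic carrying a biotin tag. A mimic is a synthetic RNA duplex that stands in for a mature microRNA, and the tag lets RNA held by it be pulled down. The 4 groups were pulldown RNA under miR-27a mimic, pulldown RNA under control mimic, whole-cell RNA under miR-27a mimic and whole-cell RNA under control mimic, with 3 libraries each. All 4 groups carried a mimic, so cells without one were not part of the comparison. Whether the replicates were separate cultures is not said in the labels, and p-values then cover only the spread among these libraries, which may be technical. The labels do not state the control mimic's sequence or the arm of miR-27a either.

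Assigned reads per library ran from 15548418 to 24972188, and the 10 genes held between 63 reads (Plk1, whole-cell control) and 4373 reads (Ccnb1, pulldown miR-27a) in a library. Values are given as CPM, reads scaled by the authors' library size, which does not account for gene length. Pulldown miR-27a replicate 2 stood apart from its replicates on the third principal component, which held 5.4% of the variance, and had the lowest value of its group for 8 of the 10 genes. Of the cell type markers checked, the 9 for OPCs were all detected and summed to 4550 to 4699 CPM in pulldown miR-27a, 3948 to 4025 CPM in pulldown control, 2444 to 2452 CPM in whole-cell miR-27a and 2384 to 2439 CPM in whole-cell control libraries. The 7 markers of myelinating oligodendrocytes summed to 3766 to 4793 CPM in pulldown miR-27a, 5120 to 5720 CPM in pulldown control, 10587 to 10972 CPM in whole-cell miR-27a and 11122 to 11615 CPM in whole-cell control libraries. The 8 astrocyte markers summed to 3848 to 4273 CPM in pulldown miR-27a, 5341 to 5479 CPM in pulldown control, 6946 to 7004 CPM in whole-cell miR-27a and 8193 to 8216 CPM in whole-cell control libraries. Markers of microglia stayed at or below 23.1 CPM in sum, and no list had a marker at 0 in all libraries. Markers of several glial cell types were thus present, and in such bulk RNA fewer cells of a type and less RNA per cell cannot be told apart.

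The sequence with which miR-27a can pair with a message is shown because the pulldown used a miR-27a mimic. Its arm is not stated in the labels, and the 3p arm is printed. MicroRNAs pair with sites in 3′ UTRs through their seed, bases 2 to 8, given here in capitals in the RefSeq sequence of the 3p arm (chr8:84208727-84208747, plus strand, GRCm38.p6).
mmu-miR-27a-3p: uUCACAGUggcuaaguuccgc
A site complementary to the seed, searched as ACTGTGAA (8mer), ACTGTGA or CTGTGAA (7mers, not counted inside an 8mer) on the sense strand, was found in the longest annotated 3′ UTR of 5 of the 10 genes, against 27.9% of 15565 genes with a 3′ UTR in GENCODE M21. An 8mer was found in Cdc25b, against 6.15% of the same genes. The 6 sites are printed below from the GENCODE transcripts with the matching bases in capitals, and they are shown because they separate members with a possible pairing site from those with none. No such letters were found in the 3′ UTRs of Ccnb1, Ccnb2, Cdc25c, Plk1 and Cdc20. A match is a description of the letters and does not show binding.
Cdc25b, position 683 of 1128 in the 3′ UTR: ccatcctcactACTGTGAAccccagagcct
Wee1, position 42 of 1174: caaaggaaaaaACTGTGAcaagaggaagc
Wee1, position 996 of 1174: atacattttacCTGTGAAtagccatttga
Cdk1, position 2392 of 3352: aaccccagcggACTGTGAcaagctctcac
Ccna2, position 806 of 1369: tggtctgagctCTGTGAAtgaagtaatat
Foxm1, position 582 of 2180: aagaaatcctgCTGTGAAagcctattgga

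The comparison of mimics asked how the RNA of these genes differed when miR-27a was supplied. All 10 genes were higher under miR-27a mimic than under control mimic in whole-cell and in pulldown RNA, with no overlap between the 3 and 3 libraries in either. Of all genes tested, 20.3% in whole-cell and 14.4% in pulldown RNA were higher with no overlap. Ccnb1 stood above the rest, at about the same ratio in both kinds of RNA, and the ratios of the group means of the other 9 genes ran from 1.15 to 2.00. Cdc25b, Foxm1 and Wee1 had the smallest differences in whole-cell RNA. The plot of CPM by library shows each value.

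**Figure D1:**
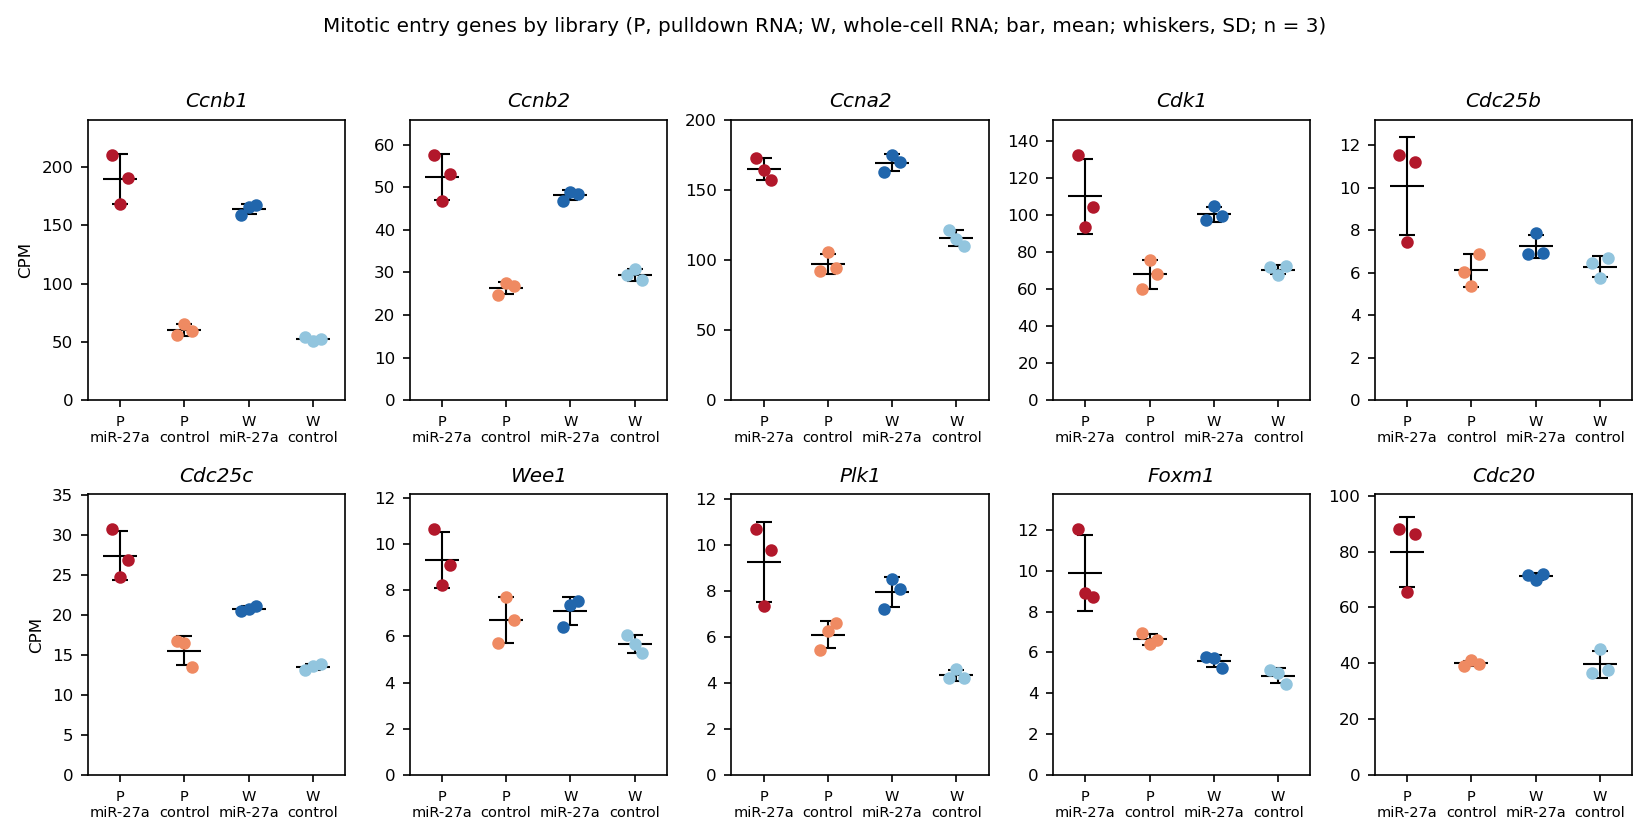
CPM of the 10 mitotic entry genes in each library (points), with the mean (bar) and SD (whiskers) of the 3 libraries of a group, for pulldown (P) and whole-cell (W) RNA under miR-27a or control mimic. Every miR-27a library lies above every control library of the same kind of RNA, for instance Ccnb1 at 168 to 210.3 CPM in pulldown miR-27a libraries and 55.7 to 65.7 CPM in pulldown control libraries.

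Ccnb1 encodes cyclin B1, the regulatory subunit without which Cdk1 cannot start mitosis (chromosome 13, 100778650 to 100786570, minus strand, GRCm38). It had 158, 166 and 167 CPM in whole-cell miR-27a libraries, against 53.8, 50.6 and 52.9 CPM in whole-cell control libraries. Its pulldown values were 210.3, 168 and 191 CPM under miR-27a, against 55.7, 65.7 and 59.5 CPM under control mimic. The group means stood at a ratio of 3.12 in whole-cell and 3.14 in pulldown RNA, and every miR-27a library was well above every control library. The differences on the log2(CPM + 1) scale were 1.62 ± 0.04 in whole-cell RNA and 1.63 ± 0.10 in pulldown RNA (SE, n = 3 each). No other of 13393 genes tested had a difference as high in whole-cell RNA, and 3 others of 13586 did in pulldown RNA. Of the 100-base stretches of the Ccnb1 transcript, 28.6% were also found in annotated pseudogenes or predicted genes (Ccnb1-ps, Gm12856, Gm4870 and Gm8416) with no row in the table. How reads with several matches were counted is not stated in the labels.

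Ccnb2 encodes cyclin B2, the other B cyclin of mouse somatic cells (chromosome 9, 70407692 to 70421547). It had 46.7, 48.9 and 48.5 CPM in whole-cell miR-27a libraries, against 29.3, 30.9 and 28.2 CPM in whole-cell control libraries. The pulldown libraries had 57.6, 46.9 and 53.0 CPM under miR-27a, against 24.8, 27.6 and 26.8 CPM under control mimic. Its differences were 0.69 ± 0.06 in whole-cell and 0.96 ± 0.10 in pulldown RNA, smaller than those of its paralog. Ccna2 encodes cyclin A2, which acts in S phase and up to early mitosis and lies on chromosome 3, 36564865 to 36572150. It had 163, 175 and 170.1 CPM in whole-cell miR-27a libraries, against 122, 115 and 110.3 CPM in whole-cell control libraries, and 173, 165 and 158 CPM in pulldown miR-27a libraries, against 92.5, 106 and 94.8 CPM in pulldown control libraries. Its differences were 0.55 ± 0.04 and 0.75 ± 0.08. Its last exons overlap Exosc9 on the other strand, and 14.4% of its 100-base stretches were shared with that gene. The libraries were made with a stranded kit, but the labels do not state whether counting used strand.

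Cdk1, the kinase itself (chromosome 10, 69335146 to 69352938), had 97.1, 105 and 99.3 CPM in whole-cell miR-27a libraries, against 71.7, 67.6 and 72.5 CPM in whole-cell control libraries. In pulldown RNA it had 133, 93.4 and 105 CPM under miR-27a, against 59.9, 75.7 and 68.4 CPM under control mimic. Its differences, 0.50 ± 0.05 in whole-cell and 0.68 ± 0.12 in pulldown RNA, were close to those of Ccna2 and well below those of Ccnb1.

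The phosphatase genes differed in level and in response. Cdc25c, whose product removes the inhibitory phosphates of Cdk1 at the start of mitosis (chromosome 18, 34732993 to 34751533), had 20.5, 20.7 and 21.1 CPM in whole-cell miR-27a libraries, against 13.1, 13.6 and 13.8 CPM in whole-cell control libraries. Its pulldown values were 30.7, 24.7 and 26.9 CPM under miR-27a, against 16.7, 16.4 and 13.5 CPM under control mimic. Its differences were 0.59 ± 0.08 and 0.78 ± 0.12. Cdc25b, which is thought to give Cdk1 its earliest activation and lies on chromosome 2, 131186949 to 131198497, was lower in level. It had 6.90, 7.87 and 6.92 CPM in whole-cell miR-27a libraries, against 6.44, 5.74 and 6.67 CPM in whole-cell control libraries, so that the groups nearly met. The pulldown libraries had 11.5, 7.43 and 11.2 CPM under miR-27a, against 6.05, 5.37 and 6.89 CPM under control mimic, and replicate 2 under miR-27a lay near the control values. Its differences were 0.18 ± 0.11 in whole-cell and 0.62 ± 0.16 in pulldown RNA.

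Wee1, the kinase that holds Cdk1 inactive (chromosome 7, 110122046 to 110143286), had 6.41, 7.34 and 7.54 CPM in whole-cell miR-27a libraries, against 6.06, 5.68 and 5.27 CPM in whole-cell control libraries. In pulldown RNA it had 10.6, 8.22 and 9.08 CPM under miR-27a, against 5.69, 7.68 and 6.72 CPM under control mimic. The inhibitor was thus higher under miR-27a mimic along with the activators, by 0.28 ± 0.11 in whole-cell and 0.42 ± 0.14 in pulldown RNA, but it did not pass the threshold in either. In pulldown RNA Wee1 passed only with array weights, in a fit of all 12 libraries and without miR-27a replicate 2, among the alternatives run. The contrast was known when the genes were chosen, so these calls are a description. Plk1, the Polo kinase that acts on both Cdc25 and Wee1 (chromosome 7, 122159439 to 122169873), had 7.22, 8.52 and 8.10 CPM in whole-cell miR-27a libraries, against 4.21, 4.62 and 4.20 CPM in whole-cell control libraries. Its pulldown values were 10.7, 7.34 and 9.78 CPM under miR-27a, against 5.45, 6.25 and 6.59 CPM under control mimic. Its ratio of means in whole-cell RNA, 1.83, was the next after that of Ccnb1, with differences of 0.74 ± 0.11 in whole-cell and 0.52 ± 0.15 in pulldown RNA on the log2(CPM + 1) scale.

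Foxm1, the transcription factor of the set (chromosome 6, 128362967 to 128376146), had 5.77, 5.74 and 5.23 CPM in whole-cell miR-27a libraries, against 5.16, 4.97 and 4.47 CPM in whole-cell control libraries. This was the smallest difference of the 10 genes in whole-cell RNA, 0.17 ± 0.11. The pulldown libraries had 12.02, 8.92 and 8.70 CPM under miR-27a, against 6.95, 6.41 and 6.59 CPM under control mimic, a difference of 0.50 ± 0.14. Cdc20, the coactivator that ends mitosis (chromosome 4, 118432901 to 118437352), had 71.6, 69.8 and 72.0 CPM in whole-cell miR-27a libraries, against 36.3, 45.1 and 37.5 CPM in whole-cell control libraries. In pulldown RNA it had 87.9, 65.4 and 86.1 CPM under miR-27a, against 39.0, 41.0 and 39.9 CPM under control mimic. Its differences of 0.83 ± 0.06 and 0.97 ± 0.11 were the largest after that of Ccnb1.

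**Figure D2:**
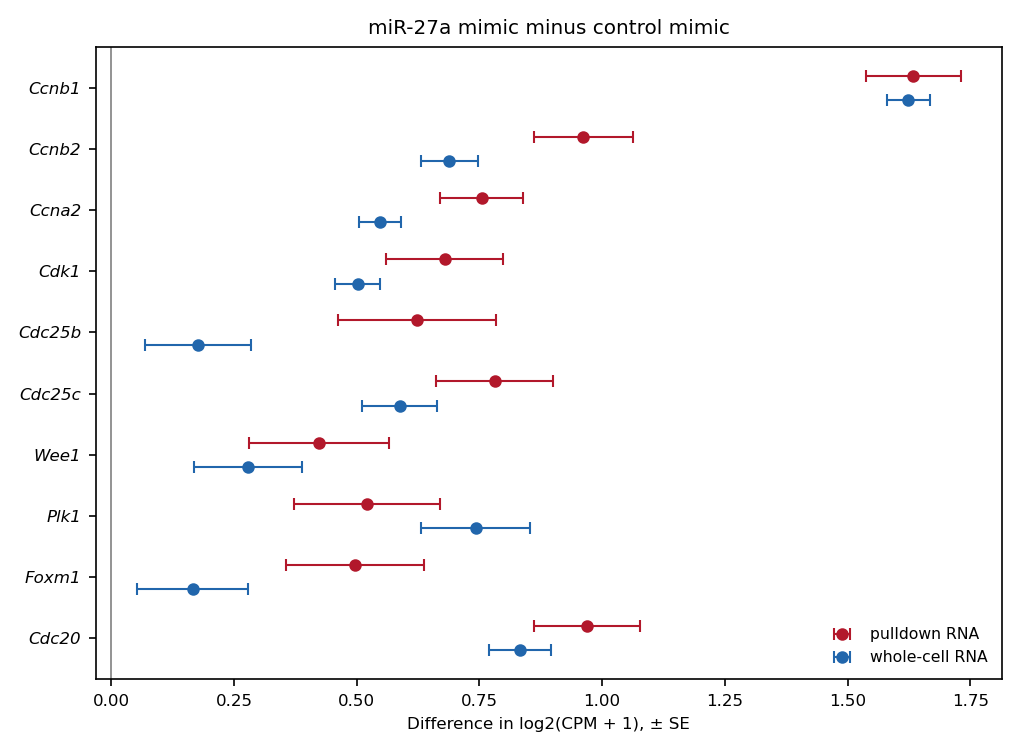
Difference in log2(CPM + 1) between miR-27a and control mimic for the 10 genes in pulldown and whole-cell RNA (points, limma estimate; bars, ± SE; 3 against 3 libraries). All points lie above 0, Ccnb1 at 1.63 in pulldown and 1.62 in whole-cell RNA, with Foxm1 lowest in whole-cell RNA at 0.17 and Wee1 lowest in pulldown RNA at 0.42.

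By limma with Benjamini-Hochberg adjustment over all genes tested, 7 of the 10 genes passed 0.05 as higher in whole-cell RNA, where 24.9% of all genes were called and 13% were called higher. The 3 that did not pass were Cdc25b, Wee1 and Foxm1. In pulldown RNA 9 passed as higher, all but Wee1, where 13.1% of all genes were called and 6.05% were called higher (822 higher and 959 lower, or 1274 and 1469 in a fit with the replicate number as a block, in which the same number of members passed). The median difference of the 10 genes was 0.57 in whole-cell and 0.72 in pulldown RNA, against 0.01 and -0.00093 over all genes tested, and without Ccnb1 it was 0.55 and 0.68. Since the members were chosen for this contrast, these counts describe them and nothing further is read from them. The whole-cell count was 7 with any 1 library left out. The pulldown count was 7 without miR-27a replicate 1, 10 without miR-27a replicate 2, 7 without miR-27a replicate 3, 6 without control replicate 1, 6 without control replicate 2 and 7 without control replicate 3, with Plk1, Foxm1 or Cdc25b the genes lost. With no filter on low values it was 5, and with array weights or in a fit of all 12 libraries it was 10.

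Of 7 other markers of dividing cells, Mki67, Top2a, Pcna, Mcm2, Mcm3 and Mcm5 were higher under miR-27a mimic with no overlap in whole-cell and in pulldown RNA, and Mcm6 was not. Mcm6 was at 130.8 ± 3.13 CPM in whole-cell miR-27a and 130.1 ± 3.36 CPM in whole-cell control libraries (SD, n = 3 each). The 7 markers summed to 1471 to 1513 CPM in whole-cell miR-27a libraries, against 1077 to 1125 CPM in whole-cell control libraries. In pulldown RNA the sum was 1125 to 1195 CPM under miR-27a, against 652 to 701 CPM under control mimic. Over all genes tested, 20.3% in whole-cell and 14.4% in pulldown RNA were higher with no overlap, and 18.4% and 16.6% were lower. Sums for other cell types also differed between mimics. The 10 markers of mural cells, smooth muscle and fibroblasts summed to 69.0 to 74.3 CPM in whole-cell miR-27a and 130 to 141 CPM in whole-cell control libraries, and to 114 to 126 CPM in pulldown miR-27a and 151 to 152 CPM in pulldown control libraries. Acta2, Tagln, Cnn1 and Pdgfrb were lower with no overlap in both kinds of RNA, whereas the other 6 overlapped in whole-cell RNA, and Col1a2 and Dcn were higher in pulldown RNA. Acta2, smooth muscle actin, was at 15.5 ± 1.43 CPM in whole-cell miR-27a and 46.0 ± 5.14 CPM in whole-cell control libraries, and Dcn, the matrix protein decorin, at 11.7 ± 1.19 CPM in whole-cell miR-27a and 11.1 ± 0.93 CPM in whole-cell control libraries. The 7 neuron markers summed to 201 to 228 CPM in whole-cell miR-27a and 156 to 177 CPM in whole-cell control libraries, and to 142 to 165 CPM in pulldown miR-27a and 126 to 137 CPM in pulldown control libraries, with Tubb3 alone higher without overlap in either kind of RNA. Snap25 was lower with no overlap in both kinds of RNA, and Gad1 and Stmn2 were lower with no overlap in pulldown RNA. The 6 endothelial markers summed to 8.94 to 10.9 CPM in whole-cell miR-27a and 7.14 to 7.34 CPM in whole-cell control libraries, and to 23.2 to 24.6 CPM in pulldown miR-27a and 14.4 to 19.0 CPM in pulldown control libraries. Most of these sums was Kdr, at 8.68 ± 0.63 CPM in whole-cell miR-27a and 5.64 ± 0.10 CPM in whole-cell control libraries. Kdr alone was higher with no overlap in whole-cell RNA, where the other 5 overlapped. In pulldown RNA Kdr and Tek were higher with no overlap, Cdh5 was lower and 3 overlapped. Mbp, a myelin protein gene, was at 440.0 ± 8.86 CPM in pulldown miR-27a and 796 ± 63.3 CPM in pulldown control libraries. The part of these markers' cells in the differences of the 10 genes was not tested.

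Ccnb1 also differed relative to the other members within each library, a ratio that does not depend on library size. There were 3.39, 3.39 and 3.44 reads of Ccnb1 for each read of Ccnb2 in whole-cell miR-27a libraries, against 1.83, 1.64 and 1.88 in whole-cell control libraries. In pulldown RNA the ratio was 3.65, 3.58 and 3.60 under miR-27a, against 2.24, 2.38 and 2.22 under control mimic. The ratio under control mimic was itself higher in pulldown than in whole-cell RNA, with no overlap. Ccnb1 to Cdk1 was 1.63, 1.58 and 1.68 in whole-cell miR-27a libraries, against 0.750, 0.749 and 0.730 in whole-cell control libraries, and 1.59, 1.80 and 1.82 in pulldown miR-27a libraries, against 0.930, 0.868 and 0.870 in pulldown control libraries. Ccnb1 to Ccna2 was 0.970, 0.944 and 0.981 in whole-cell miR-27a libraries, against 0.441, 0.439 and 0.480 in whole-cell control libraries, and 1.21, 1.02 and 1.21 in pulldown miR-27a libraries, against 0.602, 0.620 and 0.628 in pulldown control libraries. Ccnb1 thus held about as many reads as Ccna2 under miR-27a mimic and fewer in every control library. These ratios use the contrast by which the genes were chosen and are a description.

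**Figure D3:**
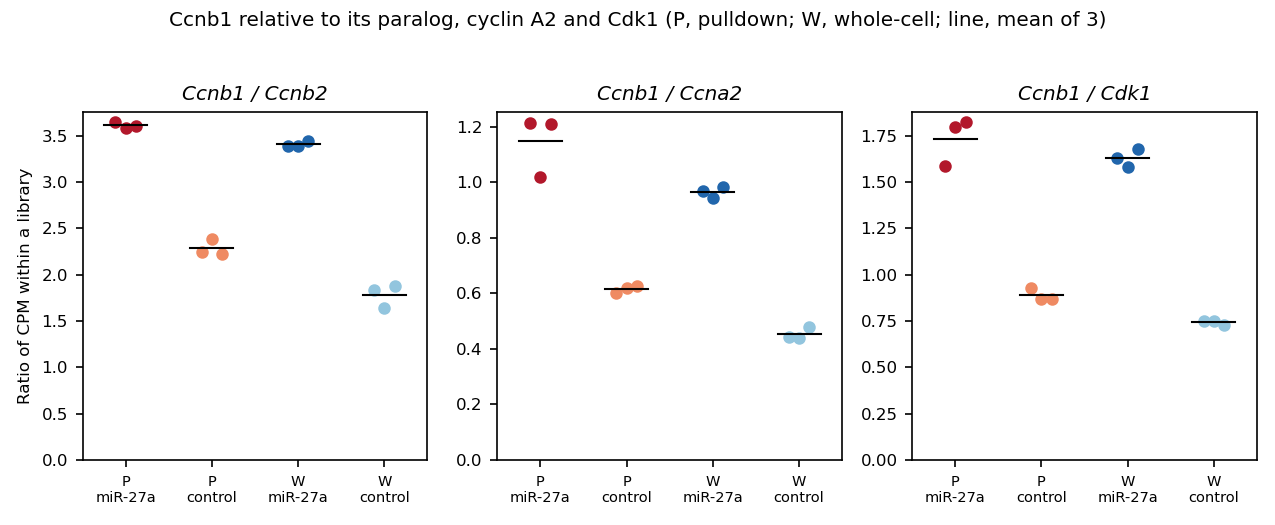
Ratio of Ccnb1 to Ccnb2, Ccna2 and Cdk1 in CPM within each library (points) with the mean of 3 libraries (line), for pulldown (P) and whole-cell (W) RNA under miR-27a or control mimic; each axis starts at 0. Ccnb1 to Ccnb2 lies between 3.39 and 3.65 in the 6 miR-27a libraries and between 1.64 and 2.38 in the 6 control libraries.

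Per kilobase of annotated exon (the union of GENCODE exons), the members divided into an abundant and a scarce group. In whole-cell miR-27a libraries Ccna2 was at 41.6 ± 1.48, Ccnb1 at 38.8 ± 1.08, Cdc20 at 38.1 ± 0.62, Ccnb2 at 31.4 ± 0.77 and Cdk1 at 20.3 ± 0.79 CPM per kilobase (SD, n = 3). In whole-cell control libraries the order was Ccna2 at 28.4 ± 1.43, Cdc20 at 21.2 ± 2.54, Ccnb2 at 19.2 ± 0.89, Cdk1 at 14.3 ± 0.53 and Ccnb1 at 12.4 ± 0.39 CPM per kilobase. In whole-cell RNA Ccnb1 was thus the second member under miR-27a and the fifth under control mimic, although Ccnb1 and Cdc20 lay within the sum of their SDs under miR-27a, and Cdc20 and Ccnb2 did under control mimic. In pulldown miR-27a libraries Ccnb1 was at 44.9 ± 5.06, Cdc20 at 42.7 ± 6.70 and Ccna2 at 40.5 ± 1.93 CPM per kilobase, within the sum of their SDs. In pulldown control libraries Ccnb1 at 14.3 ± 1.19 and Cdk1 at 13.8 ± 1.60 CPM per kilobase did not differ beyond their SDs, below Ccna2, Cdc20 and Ccnb2. The other members were lower in every group. Cdc25c was at 5.57 CPM per kilobase in pulldown miR-27a, 3.16 in pulldown control, 4.22 in whole-cell miR-27a and 2.74 in whole-cell control libraries. Plk1 was at 4.21 CPM per kilobase in pulldown miR-27a, 2.77 in pulldown control, 3.61 in whole-cell miR-27a and 1.97 in whole-cell control libraries, and Foxm1 was at 1.72 in pulldown miR-27a, 1.16 in pulldown control, 0.970 in whole-cell miR-27a and 0.846 in whole-cell control libraries. With the length of the longest coding transcript instead, Ccnb1 was at 65.8 and Ccna2 at 57.2 CPM per kilobase in whole-cell miR-27a libraries. Cdc25c was then at 10.7 in these libraries, between Cdk1 at 22.9 and Plk1 at 3.61, so the division into an abundant and a scarce group was less clear. In whole-cell control libraries Ccnb1 was then at 21.1, below Ccna2 at 39.1 and Cdc20 at 22.1 CPM per kilobase, so the order depends on which exons are counted.

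The comparison of pulldown with whole-cell RNA under each mimic asked which transcripts were more abundant in the RNA recovered by the tag. It was not the contrast by which the genes were chosen, but it uses the same libraries. Under miR-27a mimic 5 of the 10 genes were higher in pulldown RNA by limma and none was lower, where 60.2% of all genes were called, 29.3% as higher. Foxm1, Cdc25b, Cdc25c, Wee1 and Ccnb1 passed, of which only Foxm1 and Cdc25c did so under every alternative run. Ccna2 had a difference below 0 and 4 further members had small differences above 0 that did not pass.

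Foxm1 was at 9.88 ± 1.86 CPM in pulldown miR-27a and 5.58 ± 0.30 CPM in whole-cell miR-27a libraries (SD, n = 3 each), with no overlap, and rose by 0.71 ± 0.12 (limma, adjusted p = 6.0e-05). Cdc25c rose by 0.38 ± 0.10 (adjusted p = 0.00247), also with no overlap. Both passed under every alternative run. Cdc25b was higher by 0.41 ± 0.14 (adjusted p = 0.0182), Wee1 by 0.34 ± 0.12 (adjusted p = 0.0224) and Ccnb1 by 0.20 ± 0.08 (adjusted p = 0.0282). These 3 calls were lost when single libraries were left out. Without pulldown miR-27a replicate 1 the adjusted p was 0.146 for Ccnb1, 0.0884 for Cdc25b and 0.113 for Wee1. Without pulldown miR-27a replicate 3 it was 0.0707 for Ccnb1 and 0.0892 for Cdc25b. Without whole-cell miR-27a replicate 1 it was 0.0978 for Ccnb1, 0.0585 for Cdc25b and 0.0992 for Wee1, without replicate 2 it was 0.0552 for Ccnb1, and without replicate 3 it was 0.0569 for Cdc25b. Without pulldown miR-27a replicate 2, the library that stood apart, 9 of the 10 genes were called higher, with Ccnb2 (adjusted p = 0.0276), Cdk1 (adjusted p = 0.0191), Plk1 (adjusted p = 0.0329) and Cdc20 (adjusted p = 0.00168) added. Of the 13536 genes that reached 1 CPM in 3 or more of these 6 libraries, 32.2% were higher in pulldown miR-27a libraries with no overlap, against 4 of the 10 members.

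Under control mimic 3 of the 10 genes were higher in pulldown RNA and 1 was lower, where 62% of all genes were called, 31.7% as higher and 30.3% as lower. Plk1 was at 6.10 ± 0.58 CPM in pulldown control and 4.34 ± 0.24 CPM in whole-cell control libraries and rose by 0.41 ± 0.13 (adjusted p = 0.00998). Foxm1 was at 6.65 ± 0.28 CPM in pulldown control and 4.87 ± 0.36 CPM in whole-cell control libraries and rose by 0.38 ± 0.12 (adjusted p = 0.0106). Both calls held under every alternative. Ccna2 was at 97.7 ± 7.15 CPM in pulldown control and 116 ± 5.84 CPM in whole-cell control libraries, and fell by 0.24 ± 0.07 (adjusted p = 0.00321), a call lost at an adjusted p of 0.0502 when CPM were scaled to library totals. Ccnb1 was higher by 0.19 ± 0.08 (adjusted p = 0.0348), and lost this call without pulldown control replicate 2 (adjusted p = 0.172) or replicate 3 (0.0638), and without whole-cell control replicate 2 (0.112) or replicate 3 (0.0667). The other members had differences between -0.15 and 0.20 that did not pass.

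**Figure D4:**
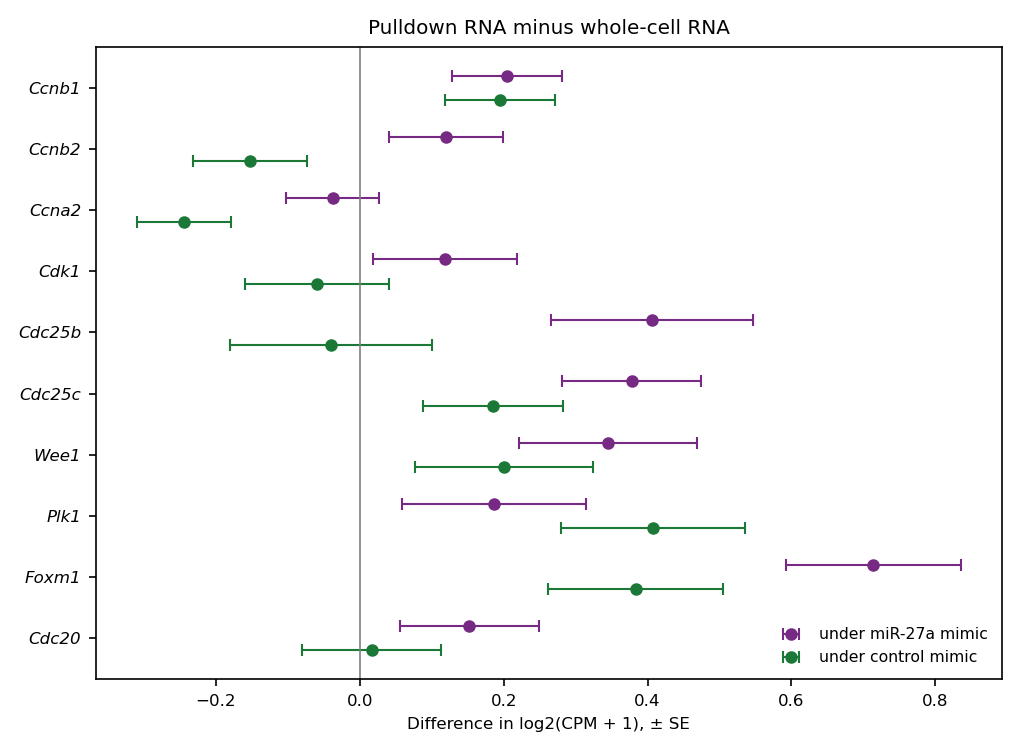
Difference in log2(CPM + 1) between pulldown and whole-cell RNA under miR-27a mimic and under control mimic (points, limma estimate from the 12 libraries; bars, ± SE; 3 against 3 libraries). Foxm1 lies highest under miR-27a at 0.71, Plk1 highest under control mimic at 0.41, and Ccna2 lowest under both, at -0.04 under miR-27a and -0.24 under control mimic.

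The members called in either direction, 5 and 4 of 10, were no larger a share than that of all genes. Their median differences were 0.20 under miR-27a and 0.10 under control mimic, against -0.01 and 0.02 over all genes tested. The summed markers of OPCs were higher in pulldown RNA and the sums for astrocytes and myelinating cells lower, as given above. Not every marker followed its sum. Under control mimic the OPC marker Sox10 was at 54.6 ± 6.45 CPM in pulldown and 60.6 ± 0.15 CPM in whole-cell libraries (SD, n = 3 each). The myelinating cell marker Myrf was at 32.5 ± 1.14 CPM in pulldown control and 22.1 ± 2.74 CPM in whole-cell control libraries. The astrocyte marker Slc1a2 was at 358 ± 12.4 CPM in pulldown control and 283 ± 5.51 CPM in whole-cell control libraries. Pdgfra, the growth factor receptor of OPCs, was at 1552 ± 53.2 CPM in pulldown miR-27a and 502 ± 10.7 CPM in whole-cell miR-27a libraries. As a sum the 7 proliferation markers outside the set ran the other way. They held 1125 to 1195 CPM in pulldown miR-27a and 1471 to 1513 CPM in whole-cell miR-27a libraries. Top2a, Pcna, Mcm2 and Mcm6 were lower in pulldown miR-27a libraries with no overlap, whereas Mki67, Mcm3 and Mcm5 overlapped. Mki67 was at 238 to 426 CPM in pulldown miR-27a and 330 to 350 CPM in whole-cell miR-27a libraries. The part of the cell mixture in the members' pulldown differences was not tested.

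The difference between these contrasts asks whether a transcript was more enriched by the miR-27a tag than by the control tag. It equals the difference between mimics in pulldown RNA minus that in whole-cell RNA, values that were known when the genes were chosen, so it too is a description of the 10 genes, with no p-value. By limma 0 of the 10 genes were called, where 1.07% of 13875 genes were called and 0.339% were called higher. Of the members 3 had an unadjusted p below 0.05, and voom on the recovered reads called 0. These counts and the intervals below rest on values known when the genes were chosen. Nothing is read from them, nor from whether an interval excludes 0. For Ccnb1 the capture difference was 0.01 ± 0.11, with a 95% interval from -0.22 to 0.24 on the log2 scale. Cdc25b was at 0.45 ± 0.20 (interval 0.03 to 0.86), and leaving out replicate 2 of pulldown miR-27a moved it to 0.63. Foxm1 was at 0.33 ± 0.17 (-0.03 to 0.69), Ccnb2 at 0.27 ± 0.11 (0.04 to 0.51) and Ccna2 at 0.21 ± 0.09 (0.01 to 0.40). Plk1 was the only member below 0, at -0.22 ± 0.18 (-0.60 to 0.16).

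The other genes of the pathway came from 6 lists made by function, with 78 genes in all, of which 76 were tested. In whole-cell RNA 26 were higher and 2 lower under miR-27a mimic, the 26 including Ccna1, which passed the filter only through its miR-27a libraries. In pulldown RNA 15 were higher and 2 lower. With the replicate number as a block, which paired the pulldown libraries, 19 were higher and 3 lower there, with Atr, Ccnf, Plk4, Ppp2ca and Rbl1 gained. As shares these compare with 13% of all genes called higher and 11.9% lower in whole-cell RNA, and 6.05% higher and 7.06% lower in pulldown RNA. The lists were made with earlier results of these data known. Most calls stood in the lists of Polo and Aurora activation, the anaphase-promoting complex and the partners of Cdk1.

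All 8 genes of Polo and Aurora activation rose in whole-cell RNA and 7 of 8 in pulldown RNA, with list medians of 0.48 and 0.68. Tpx2, the spindle protein that activates Aurora A, was higher by 0.46 ± 0.05 in whole-cell and 0.83 ± 0.08 in pulldown RNA. Aurkb, the Aurora kinase of the chromosomal passenger complex, was higher by 0.57 ± 0.07 and 0.87 ± 0.14, and its partners Cdca8 and Birc5 (survivin) were higher by 0.57 ± 0.06 and 0.54 ± 0.08 in whole-cell RNA. Of 10 tested partners and kinases of Cdk1, 5 rose in whole-cell RNA, Ccna1 among them, and 1 in pulldown RNA. The latter was Cks2, a small subunit of the Cdk1 complex, at 0.52 ± 0.07 in whole-cell and 0.54 ± 0.11 in pulldown RNA. Cyclin F (Ccnf) and Cdk2 were higher in whole-cell RNA by 0.38 ± 0.09 and 0.22 ± 0.06, the call of Cdk2 being lost without miR-27a replicate 1 (limma adjusted p = 0.0698). Ccna1, the germline cyclin A, was scarce, at 1.66 ± 0.37 CPM in whole-cell miR-27a and 0.54 ± 0.38 CPM in whole-cell control libraries. It passed the filter on low values of that fit only through the miR-27a libraries, so its difference of 0.81 ± 0.18 is given as a value. Nothing is read from its call, which was lost with no filter (limma adjusted p = 0.0865). In pulldown RNA it was at -0.30 ± 0.20.

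Of the Greatwall and PP2A-B55 genes, Mastl alone rose among 8, by 0.39 ± 0.06 in whole-cell and 0.47 ± 0.12 in pulldown RNA. Mastl encodes Greatwall, the kinase that shuts off the phosphatase PP2A-B55 in mitosis. The substrate gene Arpp19 and the catalytic subunit gene Ppp2ca were at -0.10 ± 0.04 and -0.08 ± 0.03 in whole-cell RNA and did not pass, and Ppp2cb fell by 0.27 ± 0.08 in pulldown RNA. The Ppp2cb call was lost without miR-27a replicate 3 (limma adjusted p = 0.163) and without control replicate 1 (0.1005), replicate 2 (0.123) or replicate 3 (0.121), and the pulldown call of Mastl without control replicate 1 (0.0972) or replicate 3 (0.0503). Of 22 genes of the anaphase-promoting complex and its regulators, 6 rose and 1 fell (Anapc10) in whole-cell RNA, and 4 rose and 1 fell (Cdc26) in pulldown RNA. Among them were Ube2c, the ubiquitin-conjugating enzyme of the complex, at 0.63 ± 0.07 and 0.77 ± 0.11, the checkpoint genes Bub1b at 0.55 ± 0.05 and 0.76 ± 0.10 and Mad2l1 at 0.42 ± 0.06 and 0.63 ± 0.11, and the core subunit Anapc5 at 0.18 ± 0.03 and 0.12 ± 0.09, the last of which did not pass. Bub1b and Mad2l1 encode inhibitors of the Cdc20-bound complex, so an activator and its inhibitors were higher together.

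Of 12 MuvB, B-MYB and DREAM genes, the complexes that read the promoter elements of late cell cycle genes, 4 rose in whole-cell RNA, Rbl1, Lin54, Tfdp1 and Tfdp2, by 0.14 to 0.21. Leaving out single libraries ended the calls of Rbl1 (without miR-27a replicate 3, limma adjusted p = 0.111, or control replicate 2, 0.0908) and Lin54 (without miR-27a replicate 1, 0.0661, or replicate 2, 0.0536). The call of Tfdp2 was lost without any library but control replicate 1, at adjusted p of 0.0625 to 0.138. In pulldown RNA 0 passed by limma, 1 (Rbl1) had an unadjusted p below 0.05 and voom called 0, and the 4 genes had differences of 0.02 to 0.26. Rbl1 passed there at 0.26 in the fit with the replicate number as a block (adjusted p = 0.0486). Of 16 tested genes of the G2 checkpoint, which blocks Cdk1 when DNA is damaged, Clspn (0.52 ± 0.09) and Chek2 (0.32 ± 0.10) rose and Btrc fell by 0.21 ± 0.07 in whole-cell RNA. The Btrc call was lost without miR-27a replicate 1 (limma adjusted p = 0.0793) or replicate 3 (0.143) and without control replicate 1 (0.0921) or replicate 3 (0.0665), and that of Chek2 without miR-27a replicate 3 (0.0911) or control replicate 3 (0.0822). In pulldown RNA Clspn (0.68 ± 0.13) and Chek1 rose. In a fit of all 12 libraries, whole-cell calls were lost for Ccnf (0.0704), Cdk2 (0.154), Anapc5 (0.0826), Rbl1 (0.0994), Lin54 (0.199), Tfdp2 (0.275), Chek2 (0.0571) and Btrc (0.0943), the values in parentheses being limma adjusted p. With no filter on low values, the whole-cell calls of Ccnf, Cdk2, Rbl1, Lin54, Chek2 and Btrc and the pulldown calls of Cks2, Aurkb, Mastl, Mad2l1 and Clspn were lost, at adjusted p of 0.0528 to 0.112. The medians of the lists other than Polo and Aurora ran from -0.07 to 0.20 in whole-cell RNA and from -0.10 to 0.08 in pulldown RNA.

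**Figure D5:**
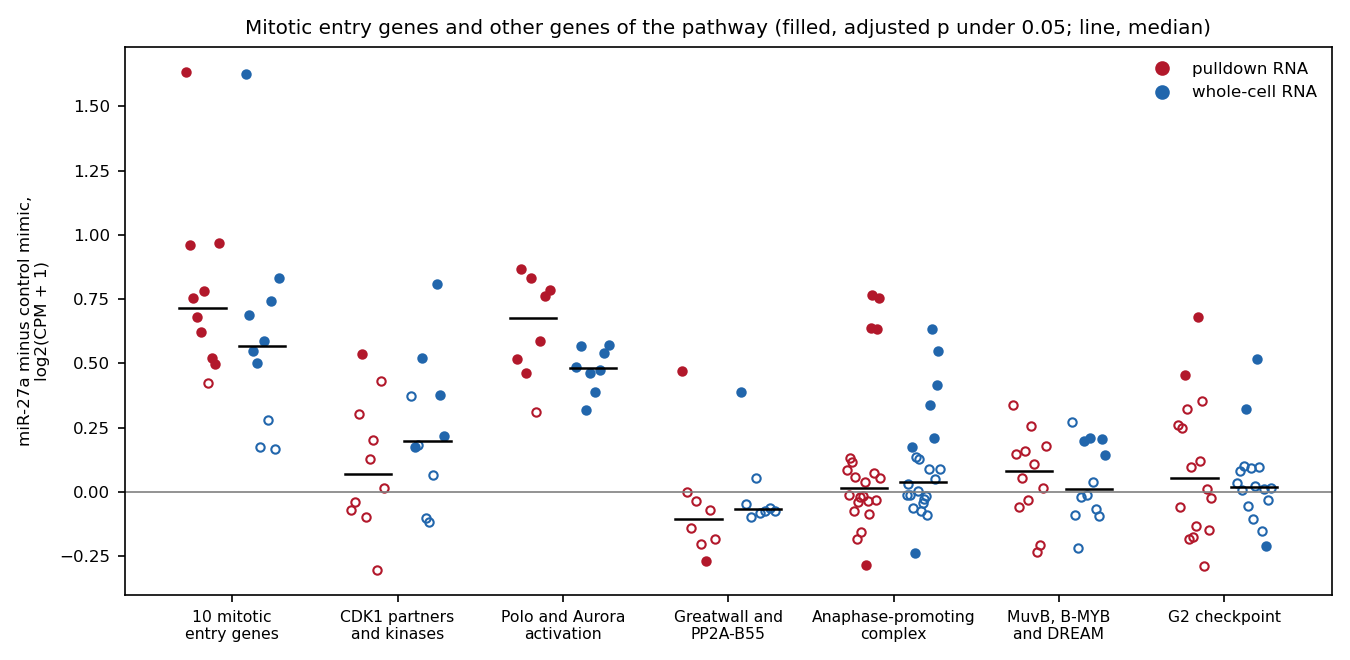
Difference in log2(CPM + 1) between miR-27a and control mimic for each of the 10 mitotic entry genes and each tested gene of the 6 pathway lists, in pulldown and whole-cell RNA; filled points had a limma adjusted p under 0.05 and lines are medians. The Polo and Aurora list lies entirely above 0, with medians of 0.68 in pulldown and 0.48 in whole-cell RNA, and the medians of the other lists run from -0.10 to 0.20.

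Between pulldown and whole-cell RNA more of these genes were lower than higher. Under miR-27a mimic 13 of the 76 genes were higher and 28 lower in pulldown RNA, and under control mimic 14 were higher and 32 lower, against shares of 29.3% higher and 30.9% lower, and 31.7% higher and 30.3% lower, of all genes. Cdc27, a subunit of the anaphase-promoting complex, fell by 0.63 ± 0.07 under miR-27a and by 0.69 ± 0.07 under control mimic, and Anapc10, another subunit, fell by 0.81 ± 0.08 under control mimic. Mnat1, a subunit of the kinase that activates Cdk1, fell by 0.59 ± 0.08 under miR-27a and by 0.73 ± 0.08 under control mimic. Ppp2ca fell by 0.64 ± 0.05 under miR-27a and by 0.53 ± 0.05 under control mimic, and the checkpoint kinase gene Atr fell by 0.48 ± 0.10 under miR-27a and by 0.71 ± 0.10 under control mimic. Cks2 rose by 0.64 ± 0.09 under miR-27a and 0.62 ± 0.09 under control mimic, and Plk4, the kinase of centriole duplication, by 0.30 ± 0.09 under miR-27a and 0.38 ± 0.09 under control mimic. Among all 76 genes, Tpx2 alone passed the threshold for the capture difference, where 1.07% of all genes were called and 0.339% were called higher. The call was lost with voom and without several single libraries. As the lists were made with earlier results known, this is a description.

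The promoters of the cyclin B genes and Cdk1 are printed because these genes code for the complex at the centre of the switch and were higher together. Promoters of late cell cycle genes are known for CCAAT boxes, which bind the factor NF-Y, and for the CHR, an element with the core TTTGAA or TTTAAA that MuvB complexes bind. In the RefSeq table (GRCm38.p6) 6 of the 10 genes had a promoter: Ccnb1, Ccnb2, Cdk1, Cdc25b, Plk1 and Cdc20. The 250 bases before the start are shown on the gene's strand, with CCAAT on either strand (ATTGG where it lies on the other strand) and TTTGAA or TTTAAA in capitals.
Ccnb1, chr13:100786487-100786736, minus strand: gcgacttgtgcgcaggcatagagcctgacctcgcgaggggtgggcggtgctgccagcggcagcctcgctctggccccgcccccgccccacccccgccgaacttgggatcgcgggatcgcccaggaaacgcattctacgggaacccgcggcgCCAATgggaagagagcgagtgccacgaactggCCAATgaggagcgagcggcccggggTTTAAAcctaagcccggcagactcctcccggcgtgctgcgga
Ccnb2, chr9:70421555-70421804, minus strand: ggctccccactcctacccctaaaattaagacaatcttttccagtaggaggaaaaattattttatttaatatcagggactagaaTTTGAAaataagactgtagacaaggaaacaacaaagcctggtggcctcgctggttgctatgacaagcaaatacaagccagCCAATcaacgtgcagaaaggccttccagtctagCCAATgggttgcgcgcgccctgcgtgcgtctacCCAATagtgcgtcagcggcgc
Cdk1, chr10:69352913-69353162, minus strand: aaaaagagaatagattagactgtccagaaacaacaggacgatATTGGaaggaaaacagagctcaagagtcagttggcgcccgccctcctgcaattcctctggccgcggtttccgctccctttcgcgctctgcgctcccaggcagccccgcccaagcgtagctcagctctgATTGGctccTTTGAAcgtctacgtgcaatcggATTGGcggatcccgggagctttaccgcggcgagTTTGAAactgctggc
CCAAT was found in all 6 promoters, and 2 or more times in 4 of them, against 33.8% and 10.1% of 32851 promoters in the table. TTTGAA or TTTAAA was found in 5 of 6, all but that of Cdc25b, against 25.2% of promoters. Ccnb1 had CCAAT starting 99 and 67 bases before the start and TTTAAA 42 bases before it, and Cdk1 had TTTGAA 15 bases before the start. In Ccnb2 the TTTGAA lay farther up, 167 bases before the start, ahead of all 3 CCAAT boxes. Positions count from the RefSeq start. The GENCODE gene of Ccnb1 reaches 84 bases, that of Cdk1 26 bases and that of Cdc20 9 bases into the window, so the motifs of Ccnb1 from position 67 on and the TTTGAA of Cdk1 at 15 lie inside those longer genes. A match says that these letters are present in the window and nothing of whether a factor was bound.

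Among all genes tested in the 12 libraries, those whose log2(CPM + 1) followed Ccnb1 most closely were Kpna2, a nuclear import receptor (Pearson r = 0.987), Pop5, a subunit of RNase P (0.985), Uhmk1, a kinase (0.978), D2Ertd750e (0.978) and Tnc, the matrix protein tenascin C (0.977). Of the members, Cdc20 was ranked 9 and Ccnb2 was ranked 12 of 13874 genes, at 0.973 and 0.972. Cdk1, Cdc25c and Ccna2 were ranked 37, 39 and 53, Plk1 80, Wee1 312, Cdc25b 449 and Foxm1 1154, with r = 0.578 for the last. The genes most like the mean of the 10 members were Ube2c (0.984), Cenpa, the centromeric histone (0.982), Itga6, an integrin subunit (0.982), Tnc (0.981) and Racgap1, a protein of the central spindle (0.973). These coefficients are over 12 libraries in 4 groups, share their library sizes and mainly follow the group means, so they are a description with no p. Tnc, at 695 ± 68.2 CPM in pulldown miR-27a, 239 ± 6.08 CPM in pulldown control, 474 ± 5.05 CPM in whole-cell miR-27a and 218 ± 7.03 CPM in whole-cell control libraries, encodes a protein of the extracellular matrix and had its highest level where Ccnb1 did.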

How the data were processed

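The deposited table held log2 CPM values for 20540 genes in 12 libraries, made by the authors. Per the series' design text, reads were trimmed with skewer, aligned with HISAT2 to GRCm38, sorted with SAMtools, counted with featureCounts of Subread and scaled by the authors with edgeR. The build mm8 also appears, without a role, in the submitters' processing notes, and versions of these tools were not stated. The values were log2 CPM with a prior of 0.25 reads, the lowest being -6.27. Undoing this gave whole reads for 100% of values (tolerance 0.01 reads) with the authors' normalisation factors of 0.961 to 1.05, and CPM was recomputed without the prior. A floor of 3 reads is 0.116 to 0.2 CPM, and it covers counting error only, since reads are not independent molecules.

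Tests used limma 3.58.1 in R 4.3.3 (two-sided, empirical Bayes with trend) on log2(CPM + 1), a scale that understates changes of low genes, for genes that reached 1 CPM in 3 or more of the libraries fitted, with Benjamini-Hochberg adjustment over all genes tested and a threshold of 0.05. The authors' unit is not counts, so voom on the recovered reads served as an alternative. Each comparison of mimics was fitted on its 6 libraries. The differences of pulldown from whole-cell RNA and the capture difference came from 1 fit of all 12. Other steps used Python 3.11.15 with pandas 2.3.3, numpy 2.4.6, scipy 1.17.1 and matplotlib 3.10.9. The fitting was tested on simulated data.

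The members and lists were chosen with earlier results of these data known. Besides all 10 members, the rule for named genes took up to 4 genes of each pathway list with the smallest p in the whole-cell comparison of mimics. It added up to 2 of each list with the smallest adjusted p in the tested comparisons, and the 5 genes most like Ccnb1 and most like the mean of the members. Other genes that had passed were named to complete a small count, after their values were seen. Bora, Anapc15, Rad9a and Myrf were matched by older symbols.

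Replicate numbers were checked as pairs by the correlation of deviations from group means. In pulldown RNA same-numbered miR-27a and control libraries correlated at 0.13, 0.27 and 0.11, each best with its own number. The fit without a block stayed the main one, and values with the replicate number as a block are given beside pulldown results where they change a call or a count. Same-numbered libraries correlated at -0.03 to 0.00086 between mimics in whole-cell RNA. They correlated at -0.10 to 0.01 between pulldown and whole-cell RNA under control mimic, so the numbers did not pair in these 2 comparisons. Between pulldown and whole-cell RNA under miR-27a the values were 0.01, 0.16 and 0.13. Replicates 2 and 3 were each best with their own number and replicate 1 was not, so pairing was partial. With the block, Atm gained and Ccna1 lost a call in that comparison. Alternatives were the pseudocount, the filter on low values, the scaling of libraries, the deposited log2 values, voom, array weights, the libraries in the fit, the replicate block and leaving out each library.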

Additional observations from a re-analysis of the deposited data

Results flagged for a closer look

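Tpx2, which encodes the spindle protein that activates Aurora A, was flagged for its capture, that is, for how far pulldown RNA lay above whole-cell RNA under each mimic. Its list was made with earlier results of these data known. It was also named by its whole-cell difference between mimics, which is part of the capture difference. The values and adjusted p below are therefore a description. It was at 117 ± 4.21 CPM in pulldown miR-27a, 65.4 ± 2.27 CPM in pulldown control, 102 ± 5.24 CPM in whole-cell miR-27a and 74.1 ± 1.97 CPM in whole-cell control libraries (SD, n = 3 each). The pulldown difference was 0.19 on the log2(CPM + 1) scale under miR-27a (limma adjusted p = 0.0107; leaving out replicate 1 of whole-cell miR-27a gave 0.0603) and -0.18 under control mimic (adjusted p = 0.0163). The capture difference was 0.37 ± 0.09 (limma adjusted p = 0.0431). Tpx2 was the 1 gene called of the 76 pathway genes tested, where 1.07% of all genes were called and 0.339% were called higher. The call was lost with no filter on low values (adjusted p = 0.0517) and with voom (adjusted p = 0.0519). It was also lost without pulldown miR-27a replicate 3 (0.0521), without pulldown control replicate 1 (0.103) or replicate 3 (0.103), without whole-cell miR-27a replicate 1 (0.158), replicate 2 (0.0531) or replicate 3 (0.146), and without whole-cell control replicate 1 (0.0824), replicate 2 (0.0927) or replicate 3 (0.139). No explanation was tested.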

How the results depend on the processing

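Over the single genes named, 2250 alternative values kept direction and side of the threshold, 95 lost and 39 gained a call and 21 changed sign, and of the counts over groups of genes 529 stayed within 1.5 times and 83 moved. Except where a construction is named, the cause was not tested. With no filter on low values more genes were tested, and the comparison of mimics in whole-cell RNA called 915 genes higher and 953 lower (1736 and 1599 in the main analysis). In pulldown RNA it then called 352 higher and 398 lower (822 and 959 in the main analysis), 5 members and 6 pathway genes higher, pulldown under miR-27a had 2 members higher, and the capture difference 0 pathway genes, 30 genes higher and 43 lower (47 and 102 in the main analysis). With median-of-ratios scaling 5 pathway genes were lower in the whole-cell comparison of mimics, and the pulldown difference of Cdc20 under control mimic was -0.0013. With library totals the all-gene medians of the pulldown differences moved to 0.08 under miR-27a and 0.10 under control mimic, and Ccna2 under miR-27a was at 0.0665, and Cdk1 at 0.0307 and Cdc25b at 0.0386 under control mimic. In that scaling 0 members were lower in pulldown under control mimic and 1 pathway gene was lower in the pulldown comparison of mimics. A fit of all 12 libraries gave 17 pathway genes higher and 0 lower, and 760 genes higher and 655 lower, in whole-cell RNA, and 5 pathway genes lower, 1403 genes higher and 1648 lower in pulldown RNA. Array weights gave 8 pathway genes lower, 1748 genes higher and 2025 lower in the pulldown comparison of mimics, 8 members higher in pulldown under miR-27a, and in the capture difference 2 members higher (Ccnb2 and Cdc25b), 3 pathway genes higher, 3 lower, 331 genes higher and 600 lower. With voom 0 pathway genes had a capture difference. The replicate block gave 1274 genes higher and 1469 lower in the pulldown comparison of mimics, with 19 pathway genes higher and 3 lower, Atr, Ccnf (adjusted p = 0.0370), Plk4, Ppp2ca (0.0282) and Rbl1 (0.0486) gained. In whole-cell RNA, where the numbers did not pair, it gave 24 pathway genes higher and 2 lower, with Cdc25a and Tfdp2 (adjusted p = 0.0565) lost. Under the block no call of a member changed. Ccnb1 under miR-27a had an adjusted p of 0.0549 in the pulldown comparison of its 6 libraries alone, and under control mimic 0.0569 with median-of-ratios scaling, 0.0508 with voom and 0.0627 with no filter. Leaving out 1 library at a time gave 1 to 3 pathway genes lower in whole-cell RNA under miR-27a. In the pulldown comparison of mimics it gave 0 to 5 pathway genes lower, 474 to 1267 genes higher and 493 to 1424 lower, with Cdk2 at -0.0500 to 0.11, Tfdp1 at -0.0316 to 0.0506 and Btrc at -0.0087 to 0.0221. It gave 2 to 9 members higher in pulldown under miR-27a, with Cdk1 at -0.0218 to 0.23, and under control mimic Cdk1 at -0.14 to 0.0275, Cdc25b at -0.12 to 0.0362 and Cdc20 at -0.0415 to 0.11. In the capture difference it gave 0 to 1 members and 0 to 2 pathway genes higher, 0 to 2 pathway genes lower, 21 to 159 genes higher and 22 to 314 lower, with Ccnb1 at -0.0679 to 0.0946. Depth limits the scarce members most, Plk1 having 63 reads in its lowest library.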
